A study of Mus musculus with 18 samples.

Results

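Transcripts of the endoplasmic reticulum (ER) folding and secretory machinery were examined in mouse eosinophils that had been fed apoptotic cells (ACs). The set holds 36 protein-coding genes of the 54446 genes in the deposited table, and each was found there once by its gene identifier. They were chosen by function and not by a measured value, though earlier results of these data were known. They include luminal chaperones and co-chaperones (8), disulfide isomerases (4), lectin chaperones (2) and the secreted stress proteins Creld2 and Manf. The others are stress sensors and effectors (5), ER-associated degradation (7) and translocation with signal peptide processing (8). A mean normalized count of at least 10 was needed for a test, and 35 members had it. The exception was Derl3, an ERAD component, with 81 reads over all 18 libraries and normalized counts from 0 to 14.1.

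Eosinophils came from the peritoneal cavity of Il5Tg mice, listed as C57BL/6, in which a transgene of the eosinophil growth factor IL-5 raises eosinophil numbers. All groups shared that transgene and 18 h of culture with 5 ACs per eosinophil, the ACs being wild-type thymocytes killed with dexamethasone, and the eosinophils were taken up once more on beads against Siglec-F before 3′ end counting by CEL-Seq2. The Type 1 experiment had 4 groups, namely IFN-γ + E. coli + ACs, IFN-γ + ACs, E. coli + ACs and a control of ACs alone, and the IL-4 experiment compared IL-4 + ACs with its own ACs control. Each group had 3 libraries. Doses of the stimuli and the age of the eosinophil donors are not given in the sources used here, and eosinophils without ACs or without the transgene are not analysed here.

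Proteins bound for secretion or for membranes enter the ER through the Sec61 channel, where the signal peptide is removed and chaperones such as BiP (encoded by Hspa5), the calnexin and calreticulin lectins and the protein disulfide isomerases fold them. When unfolded proteins accumulate, the sensors IRE1 (Ern1), PERK (Eif2ak3) and ATF6 start the unfolded protein response, which raises chaperones and the machinery that returns failed proteins to the cytosol for degradation. Eosinophils store cationic granule proteins made in the ER during their development in bone marrow, and mature cells secrete cytokines on stimulation.

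A sequence that ATF6 and XBP1 are known to use is the ER stress element, in which CCAAT and CCACG stand 9 bases apart. It was looked for on both strands of the RefSeq windows of GRCm38.p6 that run from 250 bases before a transcript start to 50 after it. Windows were given for 29 members, and 9 of them held the element, against 37 of 27025 genes with a window (0.137%). The matches are shown because these members are compared below, with CCAAT and CCACG in capitals, read in the direction of the gene (CGTGG and ATTGG where the element lies on the other strand).
Hspa5, bases -65 to -47: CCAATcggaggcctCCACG
Hsp90b1, bases -212 to -194: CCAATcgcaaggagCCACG
Hsp90b1, bases -107 to -89: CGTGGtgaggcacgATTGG
Dnajc3, bases -105 to -87: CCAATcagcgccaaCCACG
Pdia6, bases -98 to -80: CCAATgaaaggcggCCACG
Calr, bases -162 to -144: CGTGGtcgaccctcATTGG
Canx, bases -145 to -127: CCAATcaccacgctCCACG
Creld2, bases -126 to -108: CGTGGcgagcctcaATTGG
Syvn1, bases -44 to -26: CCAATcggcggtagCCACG
Derl3, bases -156 to -138: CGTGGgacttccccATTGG
CCAAT by itself was in 22 of the 29 members' windows and in 41.1% of all genes with a window, and CCACG by itself was in 24 and in 35.5%. Both shares include windows that hold the whole element. The UPR element TGACGTGG was in none of the 29 members' windows and in 0.714% of genes. The 250 bases before the start of Creld2, the member with the largest rise on IFN-γ, lie at chr15:88819396-88819645 on the plus strand, with the element in capitals.
Creld2: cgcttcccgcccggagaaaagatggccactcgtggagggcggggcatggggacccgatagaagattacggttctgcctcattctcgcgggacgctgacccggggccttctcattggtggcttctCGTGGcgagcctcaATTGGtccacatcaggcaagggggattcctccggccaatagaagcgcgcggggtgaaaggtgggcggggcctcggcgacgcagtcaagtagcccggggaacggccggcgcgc
In the GENCODE annotation Hspa5 starts earlier, at 34771970 on chromosome 2, so its match lies inside the annotated gene. A match describes the letters in a window and was not tested as a binding site in these cells.

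Depth lay between 779421 and 7782072 reads on genes in a library. Replicate 3 of both IL-4 experiment groups was shallow, with 849705 reads for IL-4 + ACs and 779421 for ACs, and there 3 reads equal normalized counts of 15.4 and 16.1. Of the 10 eosinophil markers, Siglecf (1514 to 3367), Ccr3 (2623 to 4934) and Alox15 (5145 to 11929) were high in every library. In the Type 1 experiment the granule protein gene Epx (0 to 3.27), Prg3 (0 to 11.4), Ear1 (2.45 to 16.3) and Ear2 (0 to 32.5) were low. There Prg2 lay between 57.5 and 132, Il5ra between 230 and 455 and Ear6 between 336 and 2284. Summed over 9 macrophage markers, normalized counts were 8377 to 10087 in ACs, 5433 to 6069 in E. coli + ACs, 11919 to 16476 in IFN-γ + ACs and 6836 to 7169 in the group with both stimuli. They were 13451 to 17382 with ACs and 10637 to 17003 with IL-4 + ACs in the IL-4 experiment, and none of the 9 was at 0 in a whole group. The 10 plasma cell and B cell markers summed to 1314 to 1514 in ACs, 634 to 664 in E. coli + ACs, 230 to 300 in IFN-γ + ACs and 297 to 346 in the group with both, and most of this was Ighm and Igkc. Thymocyte markers (12 genes) reached at most 226, mast cell markers (6) at most 67.6 and neutrophil markers (6) at most 43.1 in any library. In bulk samples, fewer cells of a type and less RNA per cell cannot be told apart.

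**Figure D1:**
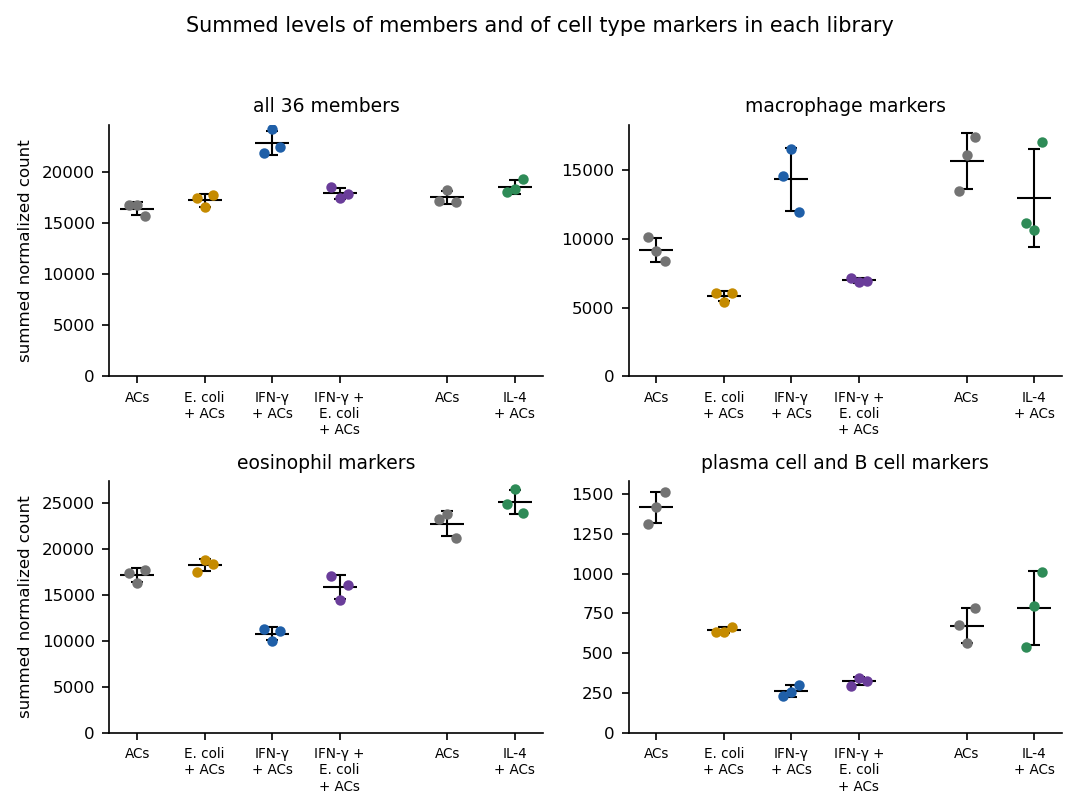
Normalized counts summed over the 36 members and over 3 marker lists in each of the 18 libraries. Points are libraries, the horizontal line is the mean and the bar the SD (n = 3), with the Type 1 experiment on the left 4 positions of each panel. The 3 IFN-γ + ACs libraries had the highest sums of members, from 21847 to 24129, and the lowest eosinophil marker sums, from 10004 to 11253.

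IFN-γ + ACs against ACs asks how the Type 1 cytokine changed these transcripts in eosinophils that had met ACs. Folding and degradation factors of every functional group but the sensors rose by at least 1.5-fold, and none fell past the threshold. They were Creld2, Ssr3, Edem1, Hspa13, Pdia6, P4hb, Calr, Manf and Derl2, that is 9 of 35 members, where 11.4% of all genes tested passed the threshold upward and 9.96% downward (limma, adjusted p under 0.05 and 1.5-fold). The 36 members summed to 15631 to 16786 normalized counts in the ACs libraries and 21847 to 24129 in those given IFN-γ. The median log2 fold change of the members was 0.37, while that of all genes was within 0.05 of 0.

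Creld2, an ER and secreted protein known as a target of ER stress, lies on chromosome 15 from 88819646 to 88826683. Its normalized counts were 243, 194 and 153 with ACs and 410, 532 and 421 with IFN-γ + ACs, so the groups did not overlap. The log2 fold change was 1.22 (SE 0.17, adjusted p = 1.9e-05). Manf, a secreted protein also held in the ER lumen, lies on chromosome 9 from 106838312 to 106891979. It had 610, 611 and 475 normalized counts with ACs and 803, 1073 and 938 with IFN-γ + ACs. Every IFN-γ + ACs library stood above every ACs library, with a log2 fold change of 0.73 (SE 0.16, adjusted p = 0.0021). Manf overlaps Rbm15b on the same strand in the annotation. Under the HTSeq union mode that the paper describes, reads in the overlap are counted to neither gene.

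Among the disulfide isomerases, Pdia6 and P4hb rose. Pdia6, on chromosome 12 from 17266545 to 17284770, had 2448, 2378 and 2133 normalized counts with ACs and 3732, 4656 and 4030 with IFN-γ + ACs (log2 fold change 0.83, SE 0.11, adjusted p = 1.2e-05). P4hb, which also forms part of the collagen prolyl hydroxylase, lies on chromosome 11 from 120560298 to 120573253 and had 891, 901 and 933 against 1584, 1738 and 1414 (0.79, SE 0.13, adjusted p = 0.00011). In both genes the groups were apart. Pdia3, the isomerase that works with the lectins, passed the adjusted p (0.0064) but not 1.5-fold, with a log2 fold change of 0.51. Pdia4 was at -0.13 and its groups overlapped.

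Of the lectin chaperones, Calr (chromosome 8, 84841850 to 84846934) rose from 892, 951 and 701 normalized counts to 1353, 1659 and 1285. The lowest IFN-γ + ACs library was above the highest ACs library (log2 fold change 0.76, SE 0.16, adjusted p = 0.0013). Canx, which encodes the membrane-bound lectin calnexin, had a log2 fold change of 0.48 (SE 0.15, adjusted p = 0.026), short of 1.5-fold.

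BiP and its main partners did not pass the threshold. Hspa5, which encodes BiP, had 2270, 2031 and 2033 normalized counts with ACs and 2777, 3269 and 2873 with IFN-γ + ACs, so the groups were apart, but the log2 fold change of 0.49 (SE 0.11, adjusted p = 0.002) was short of 1.5-fold. Hsp90b1, the ER member of the HSP90 family, was at 0.16 (SE 0.13, adjusted p = 0.4), and 2 standard errors on each side reached from -0.10 to 0.43. The BiP co-chaperones Dnajb11 and Dnajc3 were at 0.02 and -0.01, with their intervals of 2 standard errors between -0.31 and 0.30. Hspa13, a small ATPase of the HSP70 family (chromosome 16, 75745431 to 75767104), was the only luminal chaperone of 8 past the threshold. It had 31.7, 26.3 and 28.5 normalized counts with ACs and 56.7, 60.8 and 45.2 with IFN-γ + ACs (0.88, SE 0.27, adjusted p = 0.019). This call was lost without ACs replicate 2 or 3 or IFN-γ + ACs replicate 1 or 2, with an adjusted p of up to 0.07.

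In ER-associated degradation (ERAD), Edem1 and Derl2 rose. Edem1 encodes a lectin that directs misfolded glycoproteins to degradation and lies on chromosome 6 from 108828641 to 108859356. Its normalized counts were 508, 515 and 431 with ACs and 1022, 920 and 1100 with IFN-γ + ACs (log2 fold change 1.06, SE 0.13, adjusted p = 3.8e-06), about 2.09-fold. Derl2, part of the export channel complex, had 237 to 277 with ACs and 371 to 453 with IFN-γ + ACs (0.68, SE 0.16, adjusted p = 0.0039). Herpud1, a scaffold of the degradation complex, lay in the other direction at -0.50 (SE 0.18, adjusted p = 0.042). The groups of Herpud1 were apart, at 355 to 390 and 195 to 332, and without IFN-γ + ACs replicate 1 it passed the threshold downward.

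At the translocation channel, Ssr3 (chromosome 3, 65379655 to 65392623), which encodes a subunit of the translocon-associated complex, was the member that rose. Its normalized counts were 249, 259 and 226 with ACs and 512, 526 and 540 with IFN-γ + ACs (log2 fold change 1.10, SE 0.16, adjusted p = 4.1e-05). Spcs2, a subunit of the signal peptidase, and Ssr4, another subunit of the Ssr3 complex, passed the adjusted p at 0.53 and 0.43 but not 1.5-fold. Sec61b, a subunit of the channel itself, was at -0.04 with overlapping groups.

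Counted by overlap alone, 19 members were higher in all 3 IFN-γ + ACs libraries than in any ACs library and 3 were lower, while 22.6% and 20.3% of all genes tested were so. By unadjusted p under 0.05, 3 members lay lower (Xbp1, Eif2ak3 and Herpud1), and edgeR and DESeq2 each called 9 higher and 0 lower. Of the 9 members past the threshold, 8 stayed past it in every one of the 20 alternatives (all but Hspa13). Along with these members, the macrophage markers Marco (log2 fold change 2.17), Timd4 (1.00) and C1qb (0.90) rose and Vsig4 (-0.68) fell, the mast cell marker Cpa3 (2.75) and the neutrophil marker Ly6g (2.16) rose from low levels, Siglecf, Alox15, Ear6 and Il5ra fell by 0.99, 0.79, 0.93 and 0.71, and Ighm fell by 3.08. The part of these changes in the members' rise was not tested.

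**Figure D2:**
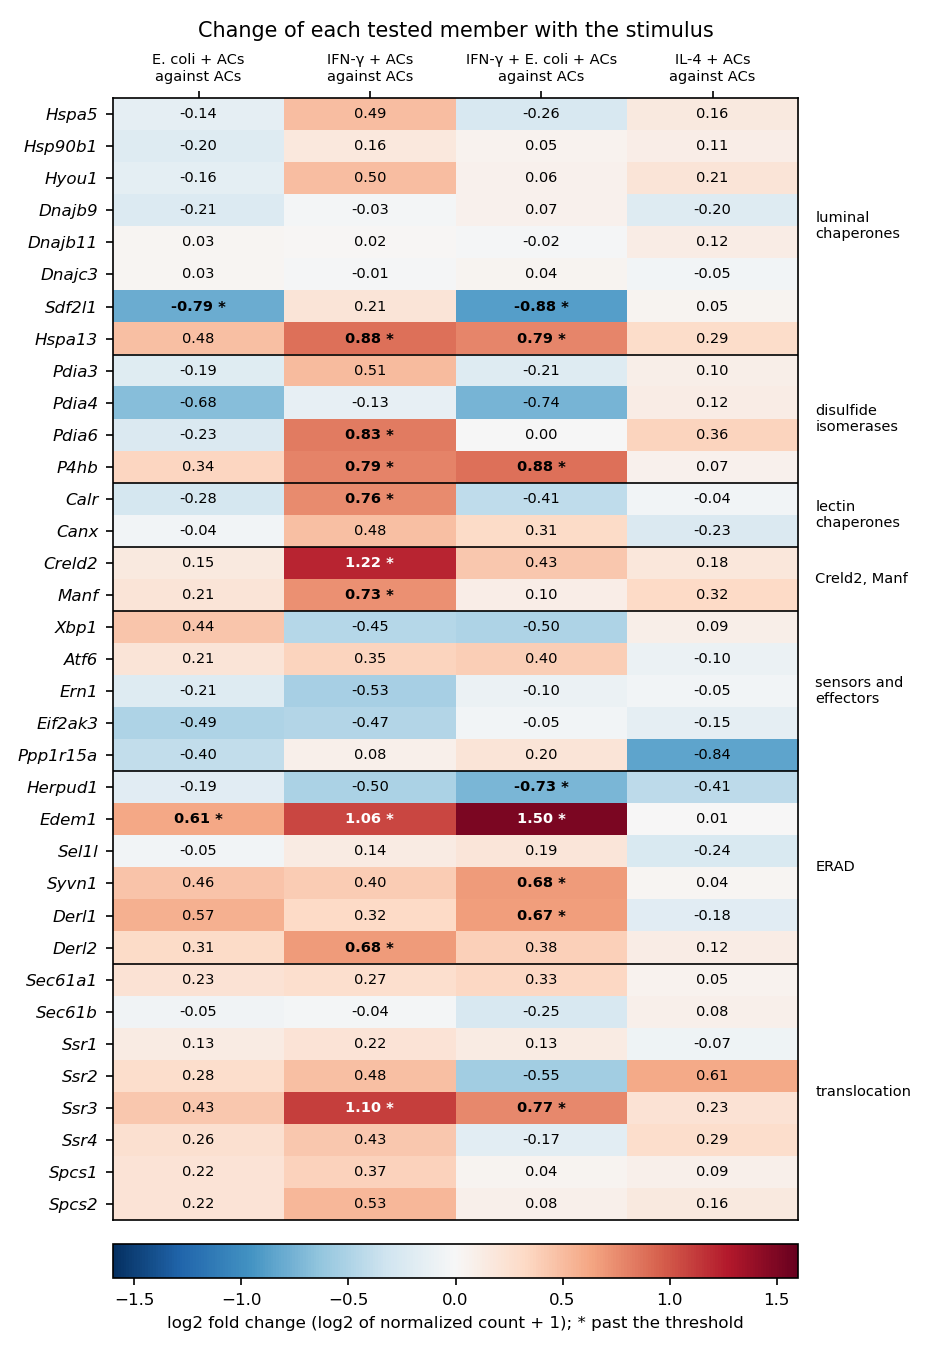
Log2 fold change of the 35 tested members (rows, by function) in the 4 comparisons with ACs (columns), red for higher and blue for lower, with an asterisk and bold type where the adjusted p was under 0.05 and the change at least 1.5-fold. IFN-γ + ACs holds 9 marks, all upward, IFN-γ + E. coli + ACs 6 upward and 2 downward, E. coli + ACs 1 each way and IL-4 + ACs none. The first 3 columns share their ACs libraries.

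**Figure D3:**
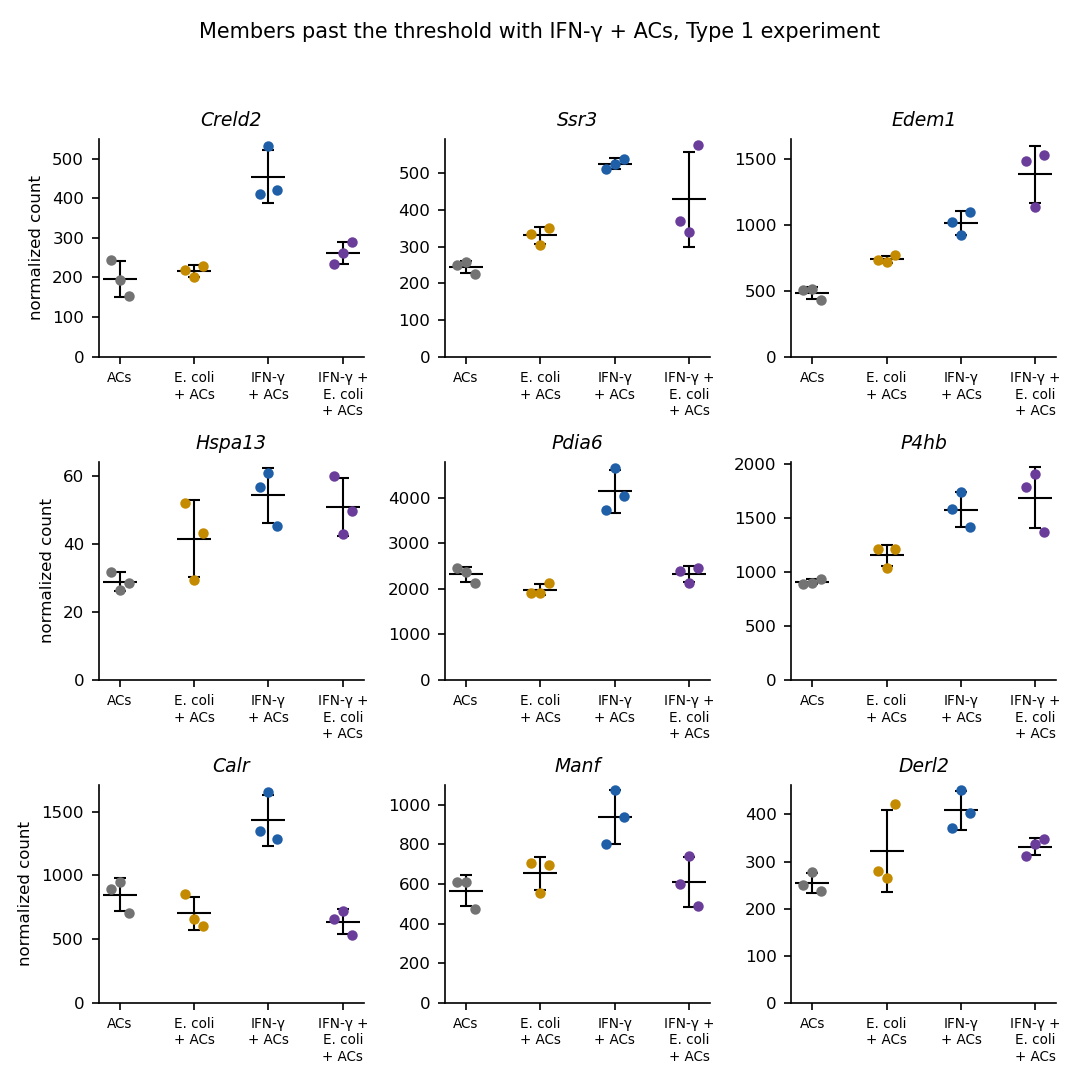
Normalized counts per library of the 9 members past the threshold with IFN-γ + ACs, in the 4 groups of the Type 1 experiment. Points are libraries and bars the mean ± SD (n = 3). In Creld2, Pdia6, Calr and Manf the 3 IFN-γ + ACs libraries lie above all other libraries, and in Edem1 and P4hb the IFN-γ + E. coli + ACs mean is the highest.

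E. coli + ACs against ACs asks what the bacterium did without the cytokine. A luminal chaperone fell and an ERAD lectin rose, that is 1 member lower and 1 higher of 35, where 5.25% of all genes tested were past the threshold downward and 5.05% upward. Sdf2l1, a partner of BiP and its co-chaperones (chromosome 16, 17130138 to 17132383), had 120, 96.7 and 118 normalized counts with ACs and 72.0, 67.9 and 52.8 with E. coli + ACs, without overlap. Its log2 fold change was -0.79 (SE 0.23, adjusted p = 0.026), and the call was lost without ACs replicate 1 or 3 or E. coli + ACs replicate 2 or 3, with an adjusted p of up to 0.12. Edem1 had 737, 716 and 768 normalized counts against 431 to 515 with ACs (0.61, SE 0.13, adjusted p = 0.0029), and it was short of 1.5-fold without ACs replicate 3, at 0.53. Derl1, which sits in the same export complex as Derl2, had 525, 502 and 464 with ACs and 717, 702 and 802 with E. coli + ACs. Its log2 fold change of 0.57 (adjusted p = 0.0045) was just short of 1.5-fold, and it passed that threshold after rescaling to a common upper quartile. The groups were apart for 7 members upward and 5 downward, against 19.9% and 18.4% of genes. Of the 9 macrophage markers, 6 fell in this comparison, among them Vsig4 by 2.73 on the log2 scale, and their part was not tested.

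IFN-γ + E. coli + ACs against ACs shares the ACs libraries of the comparisons above. The 6 members past the threshold upward were Edem1, P4hb, Hspa13, Ssr3, Syvn1 and Derl1, and the 2 downward were Sdf2l1 and Herpud1, where 14.7% of all genes tested were past it upward and 17.2% downward. After rescaling to a common upper quartile, the calls over all genes turned from 1494 upward and 1746 downward to 1900 and 1424, while the members stayed at 6 and 2. Edem1 reached 1483, 1136 and 1527 normalized counts, every one above the highest library of the other Type 1 groups (log2 fold change 1.5, SE 0.13, adjusted p = 2.8e-08), or 2.83-fold over ACs. P4hb had 1789, 1907 and 1371 (0.88, SE 0.13, adjusted p = 2.1e-05).

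Derl1 had 888, 719 and 771 normalized counts and was past the threshold at 0.67 (SE 0.13, adjusted p = 0.00037), though short of 1.5-fold without IFN-γ + E. coli + ACs replicate 1. Syvn1, the ubiquitin ligase at the centre of ERAD (chromosome 19, 6046576 to 6053712), had 53.7, 97.6 and 50.6 with ACs and 120, 90.4 and 103 with both stimuli, so the groups overlapped (0.68, SE 0.23, adjusted p = 0.026). Its call was lost without ACs replicate 1 or 3 or IFN-γ + E. coli + ACs replicate 1. Ssr3 had 369, 341 and 577 (0.77, SE 0.16, adjusted p = 0.00097), with replicate 3 above the others, and was at 0.54 without it. Hspa13 had 59.9, 42.8 and 49.7 (0.79, SE 0.27, adjusted p = 0.026) and lost its call in 4 alternatives, among them without ACs replicate 2 or 3 and without IFN-γ + E. coli + ACs replicate 1.

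Downward, Sdf2l1 had 47.0, 81.8 and 55.2 normalized counts, all below the ACs libraries (log2 fold change -0.88, SE 0.23, adjusted p = 0.0047). Herpud1 (chromosome 8, 94386438 to 94395377) had 377, 390 and 355 with ACs and 251, 242 and 188 with both stimuli (-0.73, SE 0.18, adjusted p = 0.0031). Both stayed past the threshold in all 20 alternatives, as did Edem1 and P4hb upward. Creld2 was at 0.43 (adjusted p = 0.052) and Manf at 0.10, both with overlapping groups, and Pdia6 had 2399, 2116 and 2445 normalized counts, overlapping ACs. The members' median log2 fold change was 0.06, and 6 members were apart in each direction, where 23.9% of genes were apart upward and 24.8% downward.

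Whether E. coli acted differently in the presence of IFN-γ was tested as an interaction, the log2 change by E. coli with IFN-γ minus the change without it. It used the same 12 libraries as the comparisons above, so its calls are not independent of theirs. The interaction was negative beyond the threshold for 8 of 35 members and positive for 1, where 4.28% and 3.16% of all genes tested passed in these directions. The 8 were Creld2 (-0.95), Calr (-0.89), Ssr4 (-0.86), Manf (-0.84), Ssr3 (-0.76), Spcs2 (-0.67), Hspa5 (-0.61) and Pdia6 (-0.60), with adjusted p-values from 0.013 to 0.049. Creld2 averaged 197 ± 45.0 in ACs and 216 ± 14.7 in E. coli + ACs, but 454 ± 67.4 in IFN-γ + ACs and 261 ± 27.3 in both together (normalized counts, SD, n = 3). Calr averaged 848 ± 130 with ACs, 702 ± 132 in E. coli + ACs and 1432 ± 199 in IFN-γ + ACs. With both stimuli Calr had 661, 721 and 531 normalized counts, and replicates 1 and 3 of these were below all 3 ACs libraries.

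Hspa5 had 2153, 1775 and 1824 normalized counts in E. coli + ACs and 1816, 1709 and 1749 in the group with both stimuli, the latter below all 3 libraries of IFN-γ + ACs and of ACs. Ssr4 (chromosome X, 73787028 to 73790830) had 472, 478 and 389 in ACs, 568, 473 and 563 in E. coli + ACs, 526, 687 and 595 in IFN-γ + ACs and 346, 450 and 396 in both together. Spcs2 (chromosome 7, 99837569 to 99863462) had 819, 853 and 864, then 982, 941 and 1037, then 1215, 1198 and 1244, then 938, 773 and 985 in the same order. In Ssr4 and Spcs2 the libraries with 1 stimulus lay mostly above those with ACs, and those with both overlapped ACs.

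Manf had 707, 557 and 698 normalized counts in E. coli + ACs and 600, 744 and 491 with both stimuli. Pdia6 had 1911, 1908 and 2122 with E. coli + ACs, below all ACs libraries. Ssr3 had 334, 305 and 352 with E. coli + ACs. Eif2ak3, which encodes the sensor PERK, was the member with a positive interaction (0.92, SE 0.22, adjusted p = 0.016) and is described with the sensors. Of these 9 calls, that of Ssr4 held in all 20 alternatives. Without ACs replicate 3 or without IFN-γ + ACs replicate 2 the count of negative members fell from 8 to 2, without E. coli + ACs replicate 1 to 3 and without E. coli + ACs replicate 3 to 4, and without ACs replicate 3 Eif2ak3 had an adjusted p of 0.053. Ssr2 had the largest negative value, -1.32 (SE 0.41, adjusted p = 0.058), from 33.1 to 157 normalized counts over the 12 libraries, and did not pass.

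Edem1 (-0.18), P4hb (-0.25) and Hspa13 (-0.57) did not pass the interaction test, and 2 standard errors on each side reached from -0.54 to 0.19, from -0.61 to 0.11 and from -1.33 to 0.19. Among the macrophage markers, C1qa (-1.56) and Marco (-0.86) passed with the same sign as the 8 members, and the plasma cell and B cell markers Ighm (2.14), Igkc (1.01) and Jchain (2.78) with the opposite sign. Their part in the members' interaction was not tested. Among the 8 tested members with an ER stress element, 4 had a negative interaction past the threshold (Hspa5, Pdia6, Calr and Creld2). So did 3 of the 20 members whose window lacked it, and 4.28% of all genes tested. On IFN-γ + ACs 3 of the 8 and 4 of the 20 rose, beside 11.4% of all genes tested. On E. coli + ACs 0 of the 8 and 1 of the 20 rose, and 0 and 1 fell, beside 5.05% and 5.25%. With both stimuli and ACs 1 of the 8 and 3 of the 20 rose, and 0 and 2 fell, beside 14.7% and 17.2%. IL-4 + ACs put 0 of the 8 and 0 of the 20 past the threshold. These are counts within a chosen set, with no test.

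**Figure D4:**
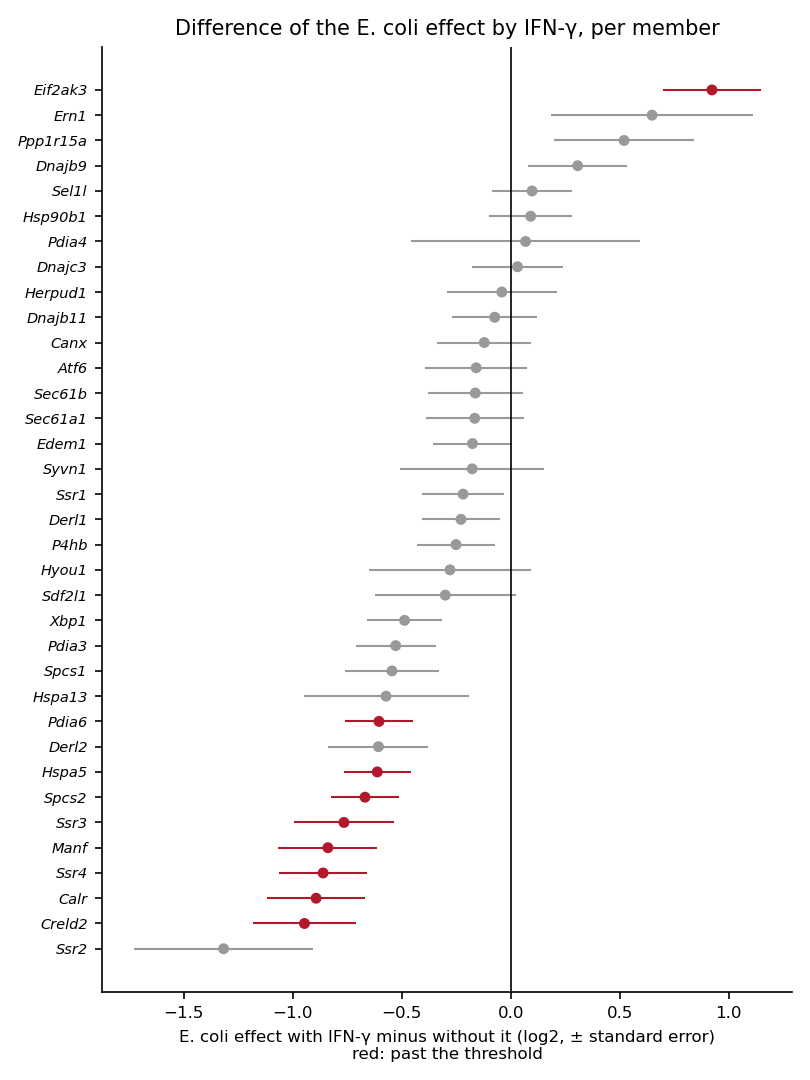
Interaction of IFN-γ and E. coli for the 35 tested members, on the log2 scale with its standard error, red where past the threshold. Of the 35 members, 27 lie below 0 and 8 above it, and Eif2ak3 is the red point on the right. Of all 10166 genes tested, 5294 lay below 0 and 4872 above it.

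Among the sensors and effectors, limma put 0 of the 5 past the threshold on IFN-γ + ACs, as did edgeR and DESeq2, and by unadjusted p under 0.05 Xbp1 and Eif2ak3 lay lower and Atf6 higher. Xbp1 encodes the transcription factor made when IRE1 splices its mRNA, and the table does not separate spliced from unspliced transcripts. Its normalized counts were 1312, 1485 and 1439 in ACs, 1798, 1933 and 2010 in E. coli + ACs, 1092, 1049 and 954 in IFN-γ + ACs and 986, 1179 and 851 in both together (chromosome 11, 5520659 to 5525893). All E. coli + ACs libraries were above, and all libraries with IFN-γ below, every ACs library. The log2 fold changes of 0.44 (E. coli, adjusted p = 0.02), -0.45 (IFN-γ, adjusted p = 0.0088) and -0.50 (both, adjusted p = 0.0029) passed the adjusted p but were short of 1.5-fold.

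Eif2ak3 (chromosome 6, 70844515 to 70905245) had 198, 228 and 236 normalized counts in ACs, 154, 148 and 166 in E. coli + ACs, 144, 156 and 176 in IFN-γ + ACs and 242, 180 and 222 in both together. Each single stimulus lay below ACs in every library, at -0.49 (adjusted p = 0.044) and -0.47 (adjusted p = 0.031), and both together overlapped ACs at -0.05. Atf6 (chromosome 1, 170704674 to 170867771) had 185, 153 and 163 in ACs, 224, 182 and 174 in E. coli + ACs, 197, 220 and 222 in IFN-γ + ACs and 178, 249 and 239 in both together. Its log2 fold changes of 0.21, 0.35 and 0.40 did not pass the adjusted p. Ern1 (chromosome 11, 106394650 to 106487852) ranged from 29.8 to 88.4 over the 12 libraries, with 56.1, 77.9 and 70.1 in ACs, and no comparison passed. Ppp1r15a, the subunit that returns eIF2α to its active form, ranged from 150 to 361 in the Type 1 experiment with overlapping groups.

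**Figure D5:**
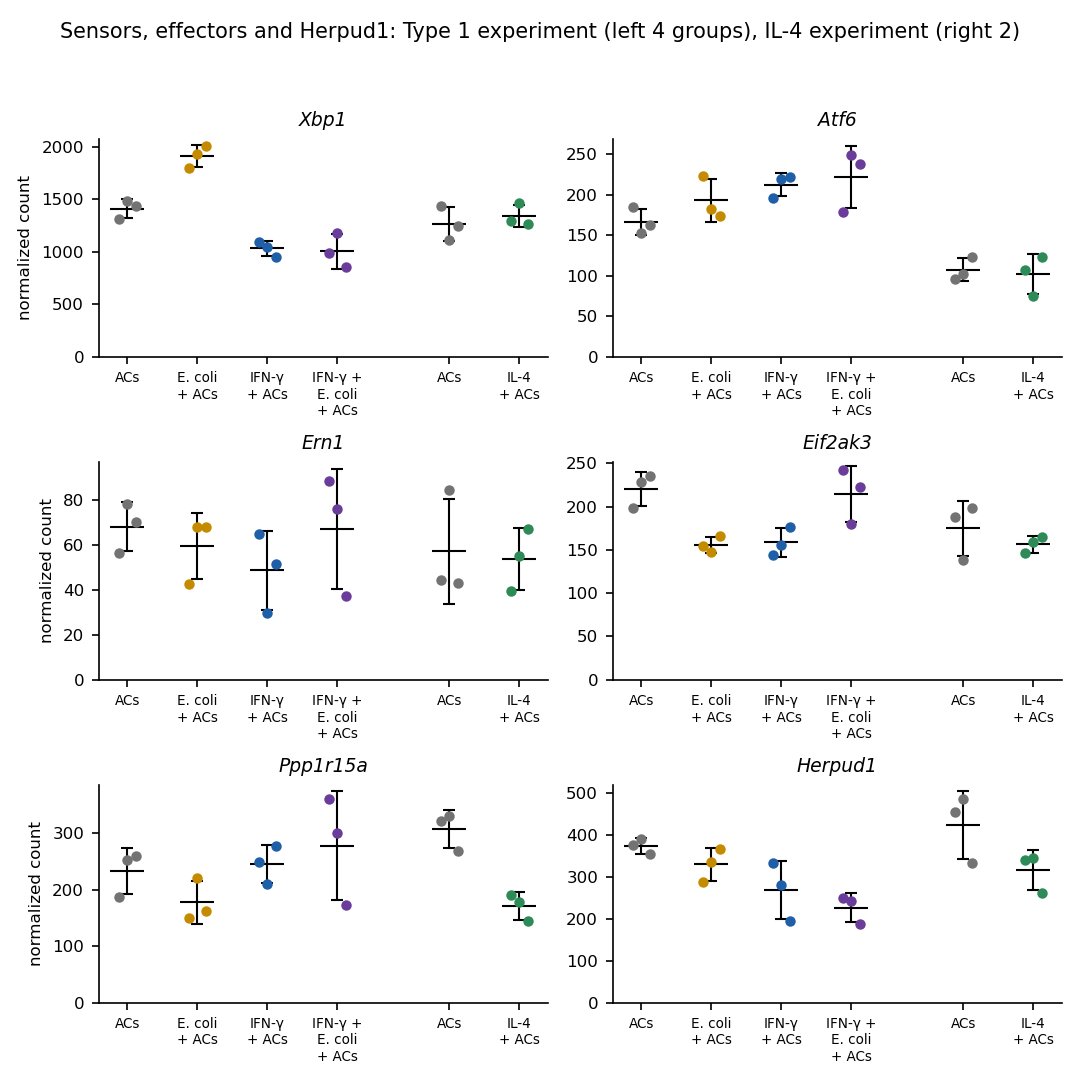
Normalized counts per library of the 5 sensors and effectors and of Herpud1 in all 6 groups, with the mean ± SD (n = 3). Xbp1 is higher in the 3 E. coli + ACs libraries than in all others, Eif2ak3 is lower with either single stimulus than with ACs or both, and Ppp1r15a is lower in the 3 IL-4 + ACs libraries than in their ACs libraries.

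IL-4 + ACs against ACs asks about the Type 2 cytokine, in the other experiment. The limma fit put 0 of 35 members past the threshold in either direction, where 0.74% of all genes tested passed upward and 0.347% downward. By unadjusted p under 0.05, 1 member was higher (Pdia6) and 1 lower (Ppp1r15a), and edgeR and DESeq2 each called 0 higher and 1 lower. Ppp1r15a (chromosome 7, 45522916 to 45526268) had 321, 330 and 268 normalized counts with ACs and 190, 179 and 144 with IL-4 + ACs, without overlap. Its log2 fold change was -0.84 (SE 0.18, adjusted p = 0.071), and over the 15 alternatives the adjusted p ranged from 0.00015 to 0.31. It passed in 7 of them, including without ACs replicate 3 and with the 4 deeper libraries only.

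Pdia6 had 1919, 1906 and 2139 normalized counts with ACs and 2349, 2355 and 2971 with IL-4 + ACs (log2 fold change 0.36, adjusted p = 0.42). For members that rose on IFN-γ in the other experiment, 2 standard errors around the IL-4 value reached from -0.20 to 0.55 for Creld2, from -0.36 to 0.37 for Edem1, from -0.33 to 0.24 for Calr and from -0.12 to 0.57 for Ssr3. Xbp1 had 1434, 1112 and 1249 with ACs and 1293, 1462 and 1270 with IL-4 + ACs, Atf6 96.2, 103 and 123 and then 107, 75.4 and 123, Ern1 44.4, 84.1 and 42.9 and then 39.4, 54.8 and 66.8, and Eif2ak3 188, 139 and 198 and then 146, 159 and 164. In all 4 sensors and effectors the groups overlapped. The 3 tested members apart upward (Pdia6, Ssr2 and Spcs2) and 2 downward (Ppp1r15a and Derl1) compare with 8.45% and 8.84% of genes tested. Derl3, too low to be tested, had 0, 0.78 and 0 with ACs (1 read in all) and 9.27, 3.16 and 10.3 with IL-4 + ACs (24 reads). The IL-4 and IFN-γ comparisons come from separate experiments with their own ACs libraries, and a difference between them was not tested.

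The ACs libraries of the 2 experiments can be set side by side, though experiment and batch cannot be told apart and no test was made. P4hb had 891 to 933 normalized counts in the Type 1 ACs libraries and 1630 to 2538 in those of the IL-4 experiment, and Spcs2 819 to 864 and 1131 to 1281. Atf6 had 153 to 185 and 96.2 to 123. Creld2, Calr and Edem1 overlapped between them.

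Of 119 other genes of the same pathway, 113 were tested with the Type 1 stimuli and 116 with IL-4. On IFN-γ + ACs 16 were past the threshold upward and 1 downward, beside 11.4% and 9.96% of all genes tested. The 3 with the smallest adjusted p were Atf3, a stress transcription factor (log2 fold change 4.65), Ero1l, the oxidase that recharges disulfide isomerases (2.27), and Sec61g, a subunit of the Sec61 channel (1.12). By list, the upward calls were 3 of 8 tested in the ATF4 and CHOP arm, 4 of 21 in COPII coats and cargo receptors, 3 of 16 in targeting and translocation, 2 of 9 other regulators, 1 of 7 in COPI, 1 of 11 in oxidative folding, 1 of 12 in N-glycosylation, 1 of 14 other folding factors and 0 of 15 in other ERAD. Their median was 0.23.

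On E. coli + ACs 5 rose and 1 fell, beside 5.05% and 5.25% of all genes tested, with Atf3 at 1.29, Ero1l at 0.89 and Srpr, the receptor of the signal recognition particle, at 0.68. With both stimuli, 19 were past the threshold upward and 10 downward, beside 14.7% and 17.2% of all genes tested. Ero1l reached 3.82, Atf3 4.23 and Cebpb, a transcription factor of inflammation and stress, 1.00. The downward calls were 3 of 12 in N-glycosylation, 2 of 11 in oxidative folding, 2 of 14 other folding factors, 2 of 16 in targeting and translocation and 1 of 15 in other ERAD, while the ATF4 and CHOP arm (4 of 8 upward), COPII (4 of 21) and COPI (2 of 7) had none. Of the 113 tested, the interaction was positive for 1, Ero1l (0.67), and negative for 5, beside 3.16% and 4.28% of all genes tested. Among the 5 were Atf3 (-1.71) and Krtcap2, a subunit of oligosaccharyltransferase (-0.95). On IL-4 + ACs limma called 0 of the 116, with 4 higher and 2 lower by unadjusted p under 0.05, and edgeR and DESeq2 each called 0 higher and 1 lower.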

How the data were processed

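For every gene and library the authors deposited a signal, the reads counted on each gene divided by a DESeq2 size factor. Per the labels, FastQC 0.11.5, cutadapt 1.10, TopHat2 2.1.0, Bowtie2 2.2.6, HTSeq 0.6.1 and DESeq2 1.26.0 were used with GRCm38. The methods also describe a second pipeline, and which of them made this table is not stated. Whole reads were recovered for 100.0% of values in every library (tolerance 0.05 of a read), and 54409 genes had a symbol. Positions are those of GENCODE for GRCm38, 1-based. Promoters are RefSeq GRCm38.p6.

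Comparisons were fitted across all genes with limma 3.58.1 in R 4.3.3 (lmFit, eBayes with trend) on log2(normalized count + 1), for genes with a mean of at least 10, on the 12 libraries of the Type 1 experiment (10166 genes) or the 6 of the IL-4 experiment (10669 genes). Fold changes on this scale understate those of low genes. The threshold was a Benjamini-Hochberg adjusted p under 0.05 with at least a 1.5-fold change. Libraries are separate samples by their labels, and p-values measure the spread between them. Replicates differed by a chi-square of 4.19 to 14.69 per degree of freedom, above counting error. The alternatives were a pseudocount of 5, no filter, a minimum mean of 50, a block for the replicate number, array weights, a common upper quartile, 2 count models fitted to the recovered reads (DESeq2 1.42.0 and edgeR 4.0.16), each library left out and, for IL-4, the 4 deeper libraries. On the recovered reads, edgeR called 1129 genes higher and 1098 lower with IFN-γ + ACs. The fits were tested on simulated data. Values in every library are given for the members with the largest changes in each comparison (up to 8), for Xbp1, Atf6, Ern1 and Eif2ak3, and for those in the interaction, and at most 3 other pathway genes are named per comparison, those of smallest adjusted p. Members, lists and tests were chosen with earlier results of these data known. Protein sequences were not used here. Figures were drawn with matplotlib 3.10.9 in Python 3.11.15.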

Additional observations from a re-analysis of the deposited data

Results flagged for a closer look

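For 9 members the change by E. coli + ACs differed between eosinophils with and without IFN-γ by the limma interaction test over 12 libraries, which is what singles them out here. The log2 difference was -0.95 for Creld2, -0.89 for Calr, -0.86 for Ssr4, -0.84 for Manf, -0.76 for Ssr3, -0.67 for Spcs2, -0.61 for Hspa5, -0.60 for Pdia6 and 0.92 for Eif2ak3. Groups of 3 libraries were not searched for single outlying values.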

How the results depend on the processing

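The 9 members higher with IFN-γ + ACs stayed between 8 and 10 when 1 library was left out, and no result reversed in any alternative. Without the filter on low values or with a common upper quartile, 5 members had a negative interaction instead of 8. With the common upper quartile, 2 members were higher with E. coli + ACs instead of 1. For IL-4 + ACs, 1 member was lower instead of 0 without the filter, with a mean of at least 50, with array weights, by edgeR, by DESeq2 and with the 4 deeper libraries only (Ppp1r15a), and 1 was higher with array weights (Ssr2). Leaving out 1 library gave 0 to 2 members higher and 0 to 1 lower with E. coli + ACs, 0 to 1 lower for IFN-γ + ACs, 3 to 6 higher and 2 to 4 lower for both stimuli together, 0 to 1 positive and 2 to 9 negative in the interaction, and 0 to 1 lower with IL-4 + ACs. The lowest of these for IFN-γ + E. coli + ACs upward came without IFN-γ + E. coli + ACs replicate 1, and the highest downward without its replicate 2. Fewer libraries enter those fits. Otherwise the cause of these differences was not tested. The shallow replicate 3 libraries of the IL-4 experiment limit what can be seen for low members such as Pdia4, Hspa13 and Hyou1.

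The replicate numbers did not pair the libraries throughout. Residuals of same-numbered libraries correlated from -0.125 to 0.245 over 18 pairs in the Type 1 experiment and from 0.006 to 0.064 over 3 pairs in the IL-4 experiment. The 3 same-numbered pairs of IFN-γ + ACs with IFN-γ + E. coli + ACs had 0.169, 0.184 and 0.245, and the differently numbered pairs of these groups lay between -0.162 and 0.02. With the replicate number as a block, 1 member was called higher and 1 lower for E. coli + ACs, 9 and 0 for IFN-γ + ACs, 6 and 2 for both stimuli together and 0 and 0 for IL-4 + ACs, and the interaction was positive for 1 and negative for 9.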
